A study of Peromyscus maniculatus with 16 samples.

Results

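The genes described here are those of fatty acid oxidation and the classical targets of PPAR-alpha in the liver of the deer mouse, Peromyscus maniculatus. They were chosen by symbol from a list of 49 that covers the uptake and activation of fatty acids, the carnitine shuttle, mitochondrial and peroxisomal beta-oxidation, electron transfer, ketone body enzymes and PPAR-alpha targets outside oxidation. Of these, 42 had a row among the 16910 genes of the count table, and all 42 passed the filter on low counts, as did 12639 genes in all. The other 7 (Acadvl, Acad11, Etfb, Acaa1a, Acaa1b, Acot1 and Acot2) were not analysed here. The list is by gene name and role, with no threshold on a measured value.

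RNA-seq was performed on whole liver of 16 animals from outbred captive stocks. C were 6 males on a regular diet. Animals on a high-fat diet (HFD), with 58 kcal% from fat and sucrose, were split after death by liver histology into NS, 5 males without steatosis, and S, 5 animals with steatosis, 3 of them female. The HFD was given for 28 weeks from 3 to 4 months of age, and all animals are labelled as 10 months old. Each group held 1 animal of the SM2 stock (P. m. sonoriensis), and the other 13 animals were of the BW stock (P. m. bairdii). Because steatosis was observed and not assigned, and because all females were in S, steatosis and female sex cannot be fully told apart.

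Fatty acids that reach the hepatocyte are joined to coenzyme A and carried into mitochondria on carnitine, where beta-oxidation shortens them and passes electrons to the respiratory chain through the electron transfer flavoprotein. Very long and branched chains are first shortened in peroxisomes. PPAR-alpha is a nuclear receptor that binds fatty acids and, with RXR, drives transcription of much of this machinery in the fasted liver, together with secreted factors such as FGF21 and ANGPTL4.

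The libraries held between 4640733 and 11349971 counted reads, and the members took 2.24% ± 0.254 (SD, n = 6) of the reads in C, 2.3% ± 0.186 (SD, n = 5) in NS and 2.41% ± 0.206 (SD, n = 5) in S. No pair of replicates was close to sampling noise, with a chi-square of at least 23.6 per degree of freedom, so each animal counted as 1 replicate. Levels are given as CPM, a gene's share of its library's reads, after TMM, edgeR's trimmed-mean scaling between libraries, and are compared only within a gene. Hepatocyte markers (7 of 10 listed genes analysed) summed to 57860 to 78610 CPM in C (median 71360), 48660 to 88880 in NS (72110) and 45740 to 73660 in S (56550), with 1 of the 7 past the adjusted p in S against C as lower, Ttr (-0.66, edgeR adjusted p = 0.0772), and 1 as higher, Apoa1 (0.96, edgeR adjusted p = 0.0575). Endothelial markers had a median sum of 203.9 CPM in C, 185.9 in NS and 286.0 in S, and Kupffer cell and macrophage markers of 382.5, 389.5 and 542.1 CPM, with the groups overlapping in both. Adipocyte markers (4 of 4 analysed) summed to 0.364 CPM or less, with leptin at 0 in all animals. The S animal 36016 stood apart by its sum of stellate cell markers (2348 CPM, against at most 506.7 in C and 377.2 in NS). Its sum of skeletal muscle markers did so too (118.6 CPM, against at most 0.882 in C and NS). Each sum came mostly from 1 gene, Col1a1 at 2058 CPM and Acta1 at 118.4 CPM. The other stellate markers lay within the C range (Lrat, Reln, Des and Col3a1) or below it (Dcn, 135.1 CPM). The S animal 35990 had the highest sums of Kupffer cell and macrophage markers (1101 CPM) and of lymphocyte markers (43.8 CPM). Ptprc alone made 33.6 CPM of the lymphocyte sum. Cd79a (5.05 CPM) and Nkg7 (2.86 CPM) were also highest in that animal, while Cd3d and Cd3e were highest in S animal 10880 and Ms4a1 was at 0 in 35990. The part of these cells in the results below was not tested, and in whole liver fewer cells of a type and less RNA per cell cannot be told apart.

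In livers with steatosis 2 mitochondrial genes were lower than on the regular diet under TMM scaling, and their calls were lost under total-count scaling. The other members did not pass, which does not show that they were unchanged. Acot12 (-0.97), Acsl4 (-0.85) and Acsl5 (0.84), among others, had larger log2 differences than these 2 genes without passing. Only Etfa and Echs1 passed an adjusted p of 0.1 in S against C (edgeR quasi-likelihood test, Benjamini-Hochberg over all 12639 genes), both lower, against a background of 10.8% of all genes in either direction 5.36% in the lower and 5.39% in the higher direction. None of the 42 members also reached a 2-fold change, against 4.06% of all genes, and in none did S and C not overlap, against 2.33% of all genes in the lower and 1.86% in the higher direction. At an unadjusted p of 0.05, 12 members (28.6%) passed, where 23.8% of all genes did. DESeq2 gave 8 members at an adjusted p of 0.1 (7 lower, and Acsl5 higher) against 14.3% of all genes, and BW animals alone gave 7, all lower, against 12.6%. For 31 of the 42 members the 95% interval of the fold change, not adjusted for the number of genes, lay inside a 2-fold change in either direction.

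Etfa encodes the alpha subunit of the electron transfer flavoprotein, which takes electrons from the acyl-CoA dehydrogenases. Its level in C ran from 1226 CPM through a median of 1600 to 1823 CPM. The NS animals had 1124, 1627, 1185, 1435 and 1229 CPM, and the S animals 1086, 1247, 1113, 1051 and 844.3 CPM. Thus 4 of 5 S animals were under the lowest C animal, and S and C overlapped only through the highest S and the lowest C animal. Etfa fell by 0.55 on the log2 scale (SE 0.15) in S against C, 0.684 of the C level, with an edgeR adjusted p of 0.0485. Without the C animal 35975 the adjusted p was 0.110. The median sum of hepatocyte markers was also lower in S than in C, but its 7 genes did not move alike. Cyp2e1 (-0.70), Ttr (-0.66), Ahsg (-0.62), Cps1 (-0.28) and Apob (-0.11) were lower, and Hnf4a (0.01) and Apoa1 (0.96) higher. The part of hepatocyte content in the difference of Etfa and in that of Echs1 was not tested. Against C the NS animals were at -0.24 (SE 0.15, edgeR adjusted p = 0.688), and S against NS at -0.31 with a 95% interval from -0.63 to 0.02 (edgeR adjusted p = 0.475).

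Echs1, the enoyl-CoA hydratase of the mitochondrial spiral, ran from 492.7 CPM through a median of 559.3 to 712.9 CPM in C. It stood at 392.7, 515.7, 403.5, 533.1 and 499.5 CPM in NS and at 361.6, 494.5, 482.8, 387.6 and 399.6 CPM in S. Only 1 S animal, at 494.5 CPM, reached the C range, and NS lay between the other groups. Echs1 fell by 0.46 on the log2 scale (SE 0.14) in S against C, with an edgeR adjusted p of 0.0700. This call was lost on leaving out any of 6 animals (C 35972, 35975 and 36007, and S 10880, 35990 and 36016), with adjusted p up to 0.144. The difference was -0.32 (SE 0.14, edgeR adjusted p = 0.594) in NS against C and -0.14 (SE 0.15, edgeR adjusted p = 0.747) in S against NS.

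The direction of these differences is relative to the scaling. TMM scaling factors averaged 0.932 in C, 0.997 in NS and 1.10 in S, and under TMM 29 of 42 members were lower in S, with a median log2 difference of -0.20, where the median of all genes was 0.10 and 42.1% of all genes were lower. With total counts in place of TMM the median of all genes moved to 0.33, that of the members to 0.06, and 19 of 42 were lower. Under that scaling Etfa was at -0.31 and Echs1 at -0.23, and neither passed (adjusted p = 0.102 and 0.279, edgeR), while 4 other members passed as higher (Acsl1, Acsl5, Hadh and Scp2) against 18.1% of all genes. Of all genes past the adjusted p in S against C, 50.1% were higher under TMM and 87.4% under total counts. The members' median lay below that of all genes by 0.30 under TMM and by 0.27 under total counts. Another scaling shifts all genes of a library alike, so these numbers show how far the zero line depends on it.

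**Figure D1:**
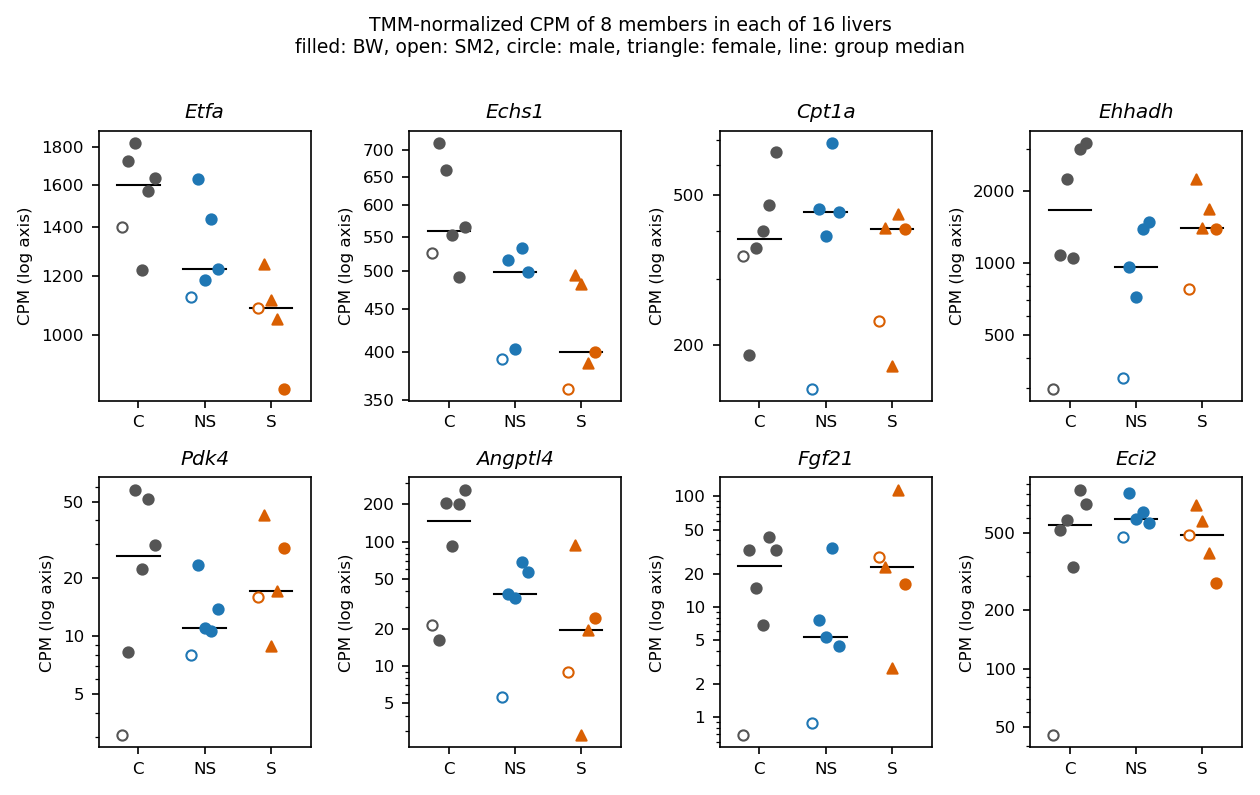
Level of 8 members in each liver, in TMM-normalized CPM on a log axis, by group (C, n = 6; NS, n = 5; S, n = 5); each point is 1 animal, open points are SM2 animals, triangles females, and lines group medians. Etfa and Echs1 vary little and sit lowest in S, while Angptl4 spans 2.78 to 262.8 CPM and Fgf21 0.689 to 115.1 CPM with the groups overlapping.

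The members are taken by role next, under TMM scaling, and Echs1 and Etfa were the only ones to pass. Of the 8 core enzymes of mitochondrial beta-oxidation 7 were lower, with a median log2 difference of -0.30, from -0.46 for Echs1 to 0.17 for Hadh, the short-chain hydroxyacyl-CoA dehydrogenase. Acadl, the long-chain acyl-CoA dehydrogenase (-0.35, SE 0.14), Acads, the short-chain one (-0.38, SE 0.17), and Hadhb, the thiolase subunit of the trifunctional protein (-0.44, SE 0.22), did not pass (edgeR adjusted p from 0.154 to 0.219). All 4 auxiliary enzymes for unsaturated chains were lower (median -0.30), the largest difference being that of the dienoyl-CoA reductase Decr1 (-0.46, SE 0.16, edgeR adjusted p = 0.108). Etfdh, which passes electrons from the flavoprotein to ubiquinone, was at -0.19 (SE 0.14). Of the 5 genes of peroxisomal beta-oxidation 4 were higher (median 0.12, from -0.27 for Ehhadh to 0.30 for the oxidase Acox3). No gene of the peroxisomal role passed the test, and its smallest edgeR adjusted p was 0.435. Under total counts 5 of the 8 core mitochondrial enzymes were lower (median -0.06), 2 of the 4 auxiliary enzymes (-0.06) and 1 of the 5 peroxisomal genes (0.35). The difference between the mitochondrial and peroxisomal roles was not tested.

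The remaining genes described here did not pass in S against C. Acadm, the medium-chain acyl-CoA dehydrogenase, was at -0.24 (SE 0.20), Hadha, the hydratase and dehydrogenase subunit of the trifunctional protein, at -0.23 (SE 0.19), and the thiolase Acaa2 at -0.03 (SE 0.29). The isomerase Eci1 was at -0.17 (SE 0.23) and the peroxisomal dienoyl-CoA reductase Decr2 at -0.43 (SE 0.21). In peroxisomes, Acox2, the branched-chain oxidase, was at 0.15 (SE 0.17), Hsd17b4, the bifunctional enzyme for branched chains, at 0.06 (SE 0.17) and the thiolase and sterol carrier gene Scp2 at 0.12 (SE 0.15). The membrane genes Pex11a and Abcd3 were at -0.21 (SE 0.45) and -0.10 (SE 0.32), and Abcd2 at 1.18 (SE 0.65, edgeR adjusted p = 0.273). Acot12, the cytosolic acetyl-CoA thioesterase, had one of the lower values, at -0.97 (SE 0.36, edgeR adjusted p = 0.121), and its S animals (138.5 to 393.3 CPM) overlapped with C (204.6 to 841.4 CPM). Of the ketone body enzymes, Acat1, which joins acetyl-CoA units, was at -0.31 (SE 0.15) and Bdh1, which makes beta-hydroxybutyrate, at -0.02 (SE 0.25).

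Of the 6 genes of uptake and activation 3 were lower and 3 higher in S against C, and none passed. The acyl-CoA synthetases Acsl1, Acsl3 and Acsl4 were at 0.37 (SE 0.20), 0.24 (SE 0.18) and -0.85 (SE 0.38). Acsl5, a long-chain acyl-CoA synthetase, ran in C from 382.4 through 535.0 to 994.5 CPM, and stood at 1048, 728.8, 711.0, 1100 and 1287 CPM in NS and at 1522, 647.7, 1426, 433.7 and 1325 CPM in S. The S animals fell into 3 high and 2 low ones, and S overlapped with C. The log2 difference was 0.84 (SE 0.31, edgeR adjusted p = 0.116) in S against C and 0.71 (SE 0.31, edgeR adjusted p = 0.594) in NS against C. Acsl5 passed in S against C with sex as a covariate, in males alone and with DESeq2; it is given in full, as Slc27a5 is, by a choice made after its values were seen.

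Slc27a5, the bile acyl-CoA synthetase, which also takes up fatty acids, ran in C from 940.6 through 1072 to 1484 CPM. NS animals had 870.4, 906.0, 557.2, 651.0 and 529.1 CPM, and S animals 1169, 830.5, 578.8, 637.3 and 700.5 CPM. Every NS animal was below every C animal, the only member of which this was true (1 of 42; 0.427% of all genes), while the SM2 animal of S lay inside the C range. The log2 difference was -0.67 (SE 0.20, edgeR adjusted p = 0.402) in NS against C and -0.52 (SE 0.20, edgeR adjusted p = 0.138) in S against C. DESeq2 passed it in both comparisons.

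No gene of the carnitine shuttle passed the test. Cpt1a, the entry step into mitochondria and a well known PPAR-alpha target, ran from 187.7 CPM through a median of 382.0 to 648.9 CPM in C. It had 153.3, 457.2, 389.8, 685.2 and 451.3 CPM in NS and 231.5, 408.0, 175.9, 444.7 and 406.9 CPM in S. The 3 groups overlapped widely, with the highest animals in C and NS, and Cpt1a had a log2 difference of -0.27 (SE 0.34, edgeR adjusted p = 0.661) in S against C and 0.09 (SE 0.34, edgeR adjusted p = 0.977) in NS against C. Cpt2, on the inner membrane, was at -0.49 (SE 0.22, edgeR adjusted p = 0.20) in S against C, where it passed with sex as a covariate and in males alone, and the carrier Slc25a20 at -0.24 (SE 0.14). Crat and Crot, the acetyl and octanoyl transferases, were at 0.13 and 0.11.

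Ehhadh, the peroxisomal bifunctional enzyme, is among the most responsive PPAR-alpha targets in rodents. It ran in C from 299.0 CPM, in the SM2 animal, through a median of 1673 to 3185 CPM. NS animals had 330.1, 961.3, 724.7, 1397 and 1484 CPM, with the SM2 animal again the lowest, and S animals 777.9, 2259, 1405, 1683 and 1397 CPM, with the SM2 animal lowest there too. NS and S both lay within the C range. Its log2 difference was -0.27 (SE 0.48) in S against C, -0.89 (SE 0.49) in NS against C and 0.62 (SE 0.50) in S against NS, with edgeR adjusted p of 0.765, 0.656 and 0.668.

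Pdk4 encodes a kinase that switches off pyruvate dehydrogenase when fat is burned. It ran from 3.05 through 26.1 to 57.8 CPM in C, stood at 7.94, 23.4, 10.99, 10.6 and 13.9 CPM in NS, and at 16.0, 42.6, 8.90, 17.2 and 28.9 CPM in S. The C animals alone spanned a 19.0-fold range, within which both HFD groups lay. The log2 difference was -0.34 (SE 0.56) in S against C, -1.11 (SE 0.57) in NS against C and 0.77 (SE 0.59) in S against NS, with edgeR adjusted p of 0.746, 0.633 and 0.644.

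Angptl4, a secreted inhibitor of lipoprotein lipase, had the largest difference of all members from C. In C it ran from 16.2 CPM through a median of 146.5 to 262.8 CPM. It had 5.67, 37.7, 35.0, 69.4 and 57.3 CPM in NS and 8.89, 94.4, 2.78, 19.4 and 24.4 CPM in S. Of the 6 C animals 4 were at 92.2 CPM or more, and 9 of the 10 HFD animals were below that, but the 2 lowest C animals lay among the HFD animals. The log2 difference was -2.14 (SE 0.83, edgeR adjusted p = 0.134) in S against C and -1.70 (SE 0.82, edgeR adjusted p = 0.599) in NS against C. In S against C it passed with DESeq2 (adjusted p = 0.0767) and with stock as a covariate (edgeR adjusted p = 0.0755). Without the S animal 35955 it also passed, at -3.26 (edgeR adjusted p = 0.0498). It did not pass with sex as a covariate (-3.02, edgeR adjusted p = 0.179) or in males alone (-3.02, edgeR adjusted p = 0.144).

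Fgf21, the hormone of the fasted liver, ran from 0.689 CPM through a median of 23.6 to 42.5 CPM in C. NS animals had 0.882, 7.64, 5.29, 34.2 and 4.44 CPM, and S animals 28.4, 22.8, 2.78, 115.1 and 16.1 CPM. The highest value was that of S animal 35990, which also had the highest macrophage and lymphocyte marker sums. The log2 difference was 0.78 (SE 0.88, edgeR adjusted p = 0.615) in S against C, or -0.29 without that animal, -1.05 (SE 0.91, edgeR adjusted p = 0.797) in NS against C and 1.83 (SE 0.95, edgeR adjusted p = 0.496) in S against NS. The last value ran from 0.76 without S 35990 to 3.03 without NS 35963, and without NS 35963 that of NS against C was -2.24. Of the other targets, Vnn1, the pantetheinase, was at 0.00 (SE 0.73) in S against C and -1.15 (SE 0.75) in NS against C, and Ucp2, an uncoupling protein homologue, was at 0.54 (SE 0.31) and 0.12 (SE 0.31).

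**Figure D2:**
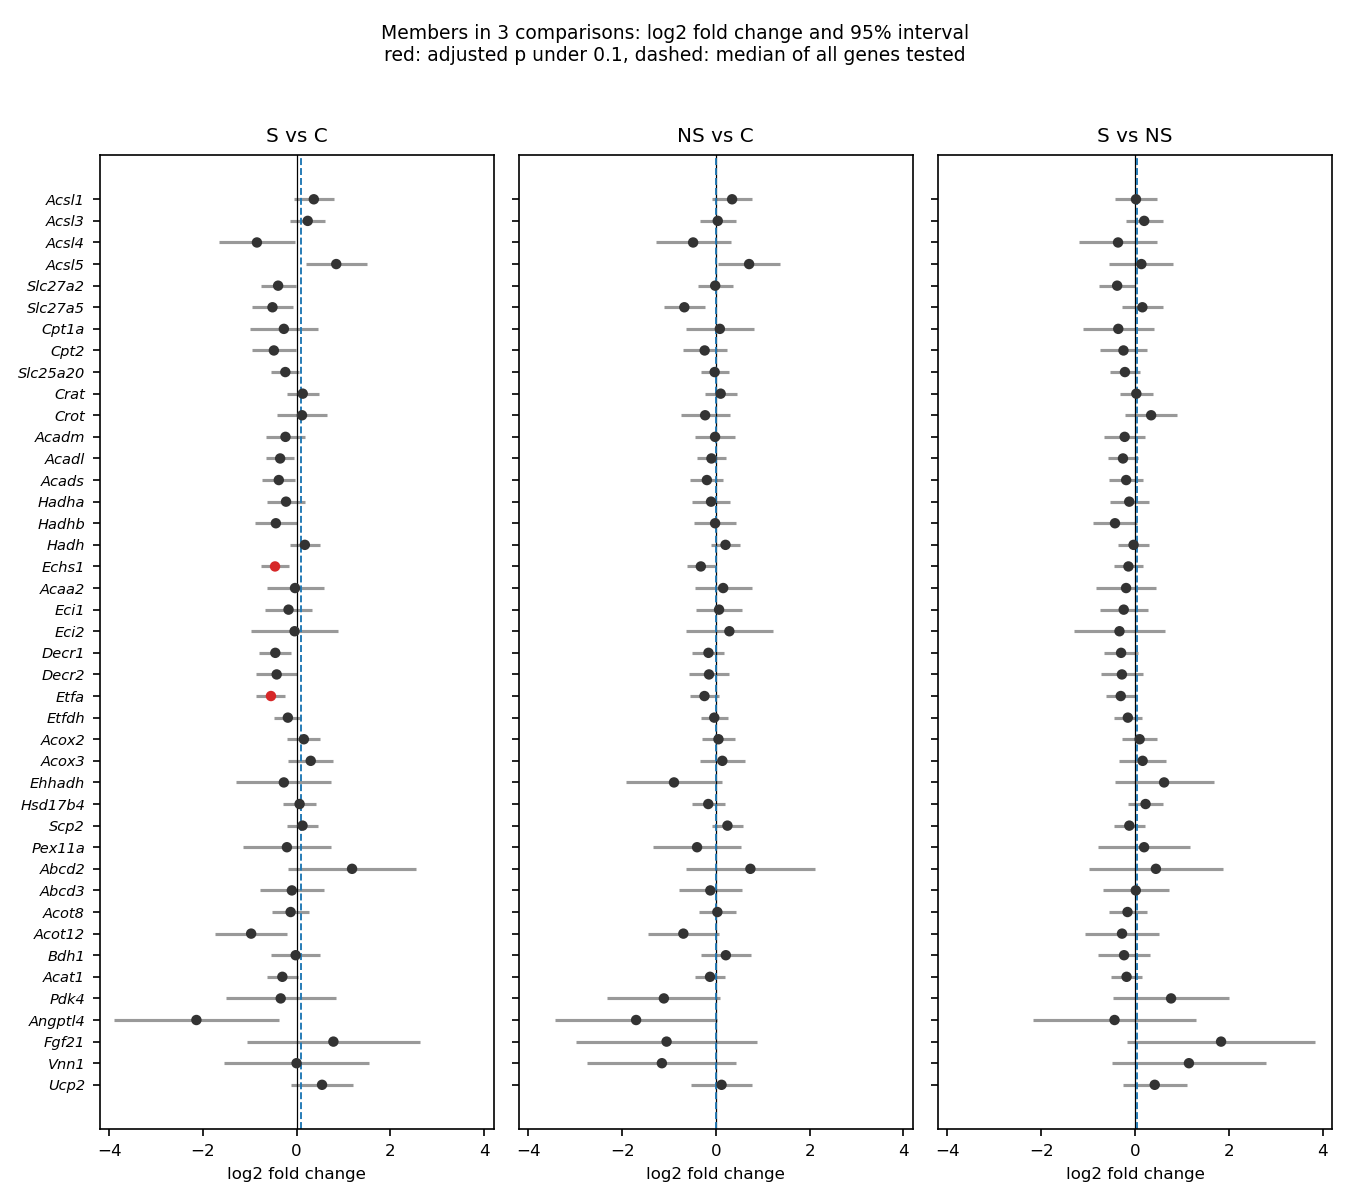
Log2 fold change of the 42 members in S against C, NS against C and S against NS with 95% intervals from edgeR, grouped by role; red marks an adjusted p under 0.1 and the dashed line the median of all 12639 genes. Etfa and Echs1 in S against C are the only red points, and the widest intervals are those of Angptl4, Fgf21, Vnn1, Abcd2 and Pdk4.

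The HFD without steatosis gave no change in these genes that passed the test. None of 42 members passed an adjusted p of 0.1 in NS against C with edgeR, against 0.0791% of all genes (0.0712% with a 2-fold change as well). At an unadjusted p of 0.05, 3 members passed (7.14%; 8.29% of all genes), and DESeq2 passed 1, Slc27a5, against 0.902% of all genes. The members' median log2 difference was -0.06, with 26 lower and 16 higher, and that of all genes 0.01; under total counts the members' median was 0.04. The 5 targets outside oxidation had a median of -1.11, from -1.70 for Angptl4 to 0.12 for Ucp2, 4 of them lower. NS against C and S against C share the same 6 control animals, so they are not independent.

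Steatosis on the same diet was compared directly in S against NS, which is also the test of whether the response to HFD differed between the groups. No member passed (edgeR and DESeq2 both 0, and 0 at an unadjusted p of 0.05, against 0.00791% of all genes past the adjusted p with edgeR, 0.942% with DESeq2 and 10.9% past the unadjusted one). In no member did S and NS not overlap (0.752% of all genes in the lower and 0.427% in the higher direction). All 8 core mitochondrial enzymes and all 4 auxiliary enzymes were lower in S than in NS under TMM (medians -0.19 and -0.29), and 4 of the 5 peroxisomal beta-oxidation genes were higher (median 0.16). Under total counts these counts were 5 of 8 (median -0.06), 4 of 4 (-0.16) and 5 of 5 (0.29). Under TMM the peroxisomal auxiliary enzyme Decr2 was lower too (-0.28, SE 0.22), and 23 peroxisome genes outside the members had a median of -0.16. The difference between roles was not tested here either. Hadhb had the most negative difference of the core enzymes, at -0.43 (95% interval -0.90 to 0.05). Slc27a2, the very-long-chain acyl-CoA synthetase, came nearest to the threshold at -0.38 (SE 0.19, edgeR adjusted p = 0.465). For 30 of 42 members the 95% interval excluded a 2-fold change, so that larger shifts remained possible for the other 12, the variable PPAR-alpha targets among them.

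Taking both HFD groups against C, no member passed with edgeR (2.67% of all genes did, 0.894% with a 2-fold change as well), 7 passed an unadjusted p of 0.05 (16.7%; 17.9% of all genes) and 6 passed with DESeq2 (8.08% of all genes). Slc27a5 was nearest, at -0.59 (SE 0.17, edgeR adjusted p = 0.1001), and passed with DESeq2 (adjusted p = 0.0237). It also passed in BW animals alone (edgeR adjusted p = 0.0425) and with stock as a covariate (edgeR adjusted p = 0.0477). It did not pass with sex as a covariate (-0.47, edgeR adjusted p = 0.184) or in males alone (-0.47, edgeR adjusted p = 0.213). Nor did it pass under total counts (-0.44, edgeR adjusted p = 0.126). The highest difference was that of Abcd2, a peroxisomal transporter of very-long-chain acyl-CoA, at 0.96 (SE 0.57), and the lowest that of Angptl4 at -1.92 (SE 0.65). Under total counts Acsl5 was the only member that passed, as higher, against 6.01% of all genes. Of all genes past the adjusted p, 45.3% were higher under TMM and 84.5% under total counts.

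Genes that act on or beside the members were read from lists of the same kind. None of 24 tested regulators of the PPAR pathway (receptors, coactivators, corepressors) passed in any comparison with edgeR. Ppara itself was at 53.4 ± 17.8 CPM (SD, n = 6) in C, 60.6 ± 27.3 (SD, n = 5) in NS and 68.0 ± 20.5 (SD, n = 5) in S, with a log2 difference of 0.35 (SE 0.30, edgeR adjusted p = 0.510) in S against C. Of 21 further PPAR-alpha targets 4 passed in S against C, 2 in each direction (10.8% of all genes; 5.36% lower and 5.39% higher). Cd36, a fatty acid translocase, rose by 1.18 (SE 0.27, edgeR adjusted p = 0.0294), and Fabp1, the liver fatty acid binding protein, by 1.42 (SE 0.48, edgeR adjusted p = 0.0927). Slc22a5, the carnitine transporter of the plasma membrane, fell by 0.84 (SE 0.17, edgeR adjusted p = 0.0201), and Hilpda, a lipid droplet protein, fell by 2.80 (SE 0.79, edgeR adjusted p = 0.0561). Hilpda was low throughout, at 4.73 ± 5.85 CPM (SD, n = 6) in C and 0.638 ± 0.388 (SD, n = 5) in S. Only the C animals 36001 (8.35 CPM) and 36007 (15.1 CPM) were above 1.734 CPM. With sex as a covariate Slc22a5 kept its call, while the others lost theirs, with Cd36 at 0.82 (adjusted p = 0.159, edgeR), Fabp1 at 1.23 (0.252) and Hilpda at -3.64 (0.112). Fabp1 also lost its call without any of 12 of the 16 animals (adjusted p up to 0.158, edgeR), and Hilpda without C 36001 or 36007 or S 35982 or 36016 (up to 0.142). Fabp1 was also higher in NS against C, at 1.70 (SE 0.48, edgeR adjusted p = 0.350). In HFD against C (2.67% of all genes) Fabp1 passed as higher (1.56), and Slc22a5 (-0.65) and Hilpda (-2.51) as lower. Their edgeR adjusted p were 0.0928, 0.0391 and 0.0610, and up to 0.145, 0.113 and 0.223 on leaving out 1 animal.

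Against the same 10.8%, of 7 further ketone body genes 1 passed in S against C, the monocarboxylate transporter Slc16a1, which rose by 1.21 (SE 0.33, edgeR adjusted p = 0.0485) and lost the call with sex as a covariate (0.96, edgeR adjusted p = 0.190). Among 23 further peroxisome genes 1 passed, Phyh, the phytanoyl-CoA hydroxylase of alpha-oxidation, which fell by 1.04 (SE 0.29, edgeR adjusted p = 0.0548) and lost the call without C 35975 or 36007 or S 36016 (up to 0.116). In HFD against C (2.67% of all genes) Phyh was the 1 peroxisome gene that passed, at -0.86 (SE 0.24, edgeR adjusted p = 0.0915). Phyh lost that call without any of 12 of the 16 animals (adjusted p up to 0.221, edgeR). No gene of these 4 lists passed in NS against C or S against NS with edgeR in the fit of all animals by group. Cd36 came nearest in S against NS, at 1.42 (SE 0.28, edgeR adjusted p = 0.211). It passed there with DESeq2 (adjusted p = 0.00142) and with stock as a covariate (edgeR adjusted p = 0.0694). It also passed in BW animals alone (edgeR adjusted p = 0.0788) and without the S animal 10880 (0.0738). It did not pass with sex as a covariate (1.06, edgeR adjusted p = 0.173) or in males alone (1.06, edgeR adjusted p = 0.217). With only the 2 groups compared it was at 1.43 (edgeR adjusted p = 0.586).

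The classical targets varied widely between animals of 1 group. The SD of log2 CPM within groups had a median of 0.37 over the members and 0.46 over all tested genes. It was under 0.4 for 23 members, lowest for Etfdh (0.19), Echs1 (0.20) and Etfa (0.21), and above 0.8 for 8 members. Those 8 were Fgf21 (1.93), Angptl4 (1.68), Vnn1 (1.63), Abcd2 (1.54), Pdk4 (1.15), Eci2 (1.02), Ehhadh (0.99) and Pex11a (0.89). Among the 500 genes nearest in mean level, Angptl4 stood at the 99.6th percentile of this SD and Etfdh at the 11.6th. In C alone Ehhadh spanned a 10.7-fold range and Fgf21 a 61.7-fold range. Abcd2 had an SD of 2.47 in S, where animal 36016 was at 0.563 CPM, against 0.96 in C and 0.72 in NS. Eci2, an enoyl-CoA isomerase, owed its place to the SM2 animal of C, at 45.4 CPM against 334.4 to 837.6 CPM in the other C animals, while the SM2 animals of NS and S stood at 476.1 and 488.2 CPM.

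**Figure D3:**
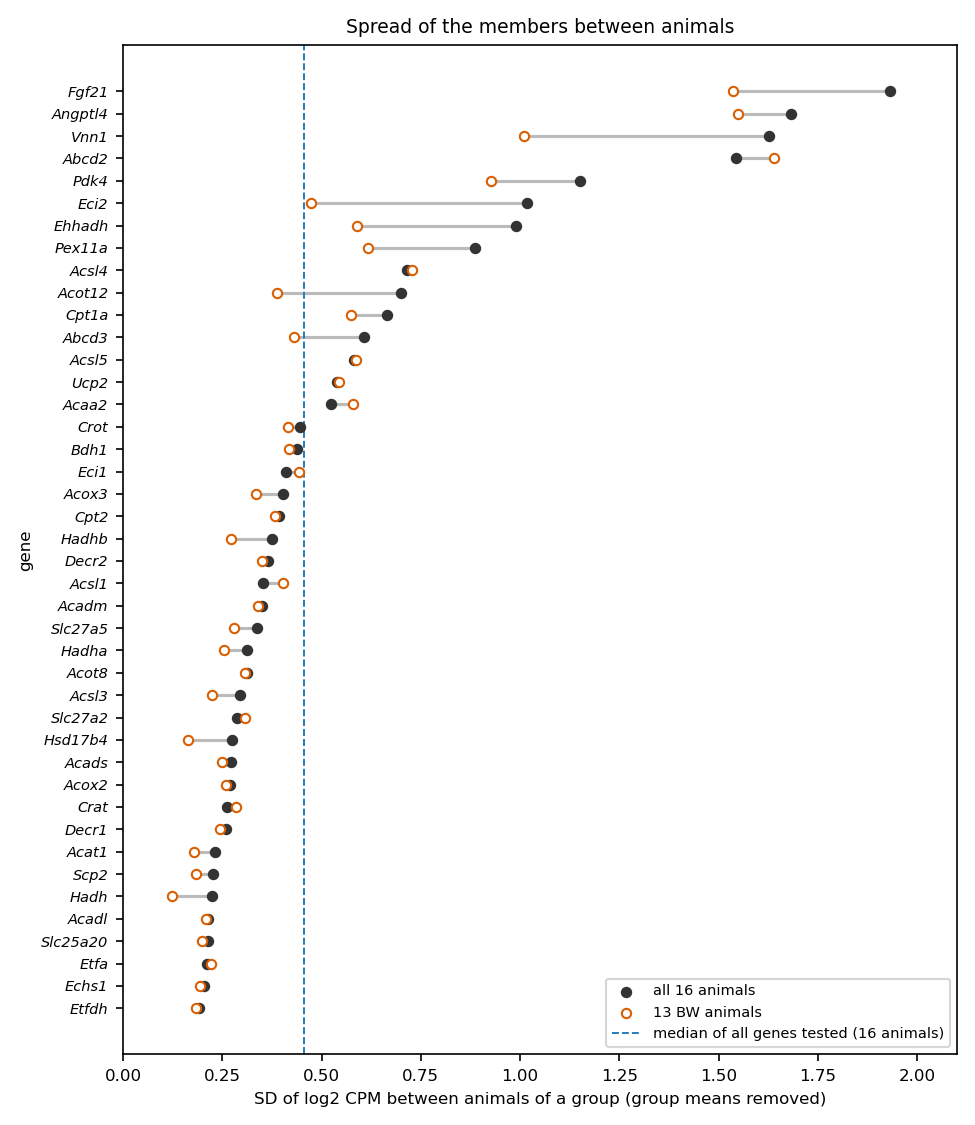
SD of log2 CPM between animals of a group for each of the 42 members, over all 16 animals (filled) and over the 13 BW animals (open); the dashed line is the median of all tested genes (0.46). Fgf21, Angptl4 and Abcd2 stay above 1.5 in BW animals alone (1.54, 1.55 and 1.64), while Eci2 drops from 1.02 to 0.47 and Ehhadh from 0.99 to 0.59. The value of Abcd2 includes the BW animal 36016 of S, at 0.563 CPM.

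Several PPAR-alpha targets were lower in the SM2 animals of all 3 groups. This comparison, of 3 SM2 with 13 BW animals and the group in the fit, was added after the values were seen, and with 3 animals the stock and the individuals cannot be well told apart. Of the 42 members 12 passed an adjusted p of 0.1 with edgeR, 11 lower in SM2 and 1 higher, against 21.8% of all genes (9.85% lower and 11.9% higher). For 6 of them the difference was at least 2-fold. In 5 members every SM2 animal was below every BW animal (3.04% of all genes), and in 1 every SM2 animal was above (3.77%). The members' median was -0.27, where that of all genes was -0.04.

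Vnn1 had 6.20, 5.04 and 2.56 CPM in the SM2 animals of C, NS and S, against 12.6 CPM, a median of 40.1 and 110.4 CPM at most in BW. Pex11a, a peroxisome proliferation factor, had 15.4, 18.7 and 17.2 CPM in SM2, against 28.2, 50.8 and 92.9 CPM as lowest, median and highest in BW. The SM2 animals were the 3 lowest of 16 in both genes. The log2 differences were -3.20 for Vnn1 and -1.69 for Pex11a (edgeR adjusted p = 0.00474 and 0.00499).

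Acot12 had 204.6, 130.6 and 138.5 CPM in SM2 and ran from 227.4 through 430.4 to 841.4 CPM in BW. Abcd3, the main peroxisomal transporter of fatty acyl-CoA, had 402.9, 306.2 and 352.0 CPM in SM2 and ran from 442.7 through 740.1 to 1152 CPM in BW. Here too no SM2 animal reached the BW range. The log2 differences were -1.43 for Acot12 and -1.13 for Abcd3 (edgeR adjusted p = 0.000795 and 0.00627), and that of Ehhadh, whose lowest BW animal lay below the highest SM2 animal, was -1.82 (edgeR adjusted p = 0.00577). Hadh went the other way, with 511.3, 564.5 and 632.5 CPM in SM2 and 359.0 to 489.2 CPM in BW, a log2 difference of 0.44 (edgeR adjusted p = 0.0142). Acot12, Vnn1, Pex11a, Ehhadh and Abcd3 passed in all 20 alternatives, while the count of members fell to 6 without the SM2 animal of NS and to 7 without that of S.

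**Figure D4:**
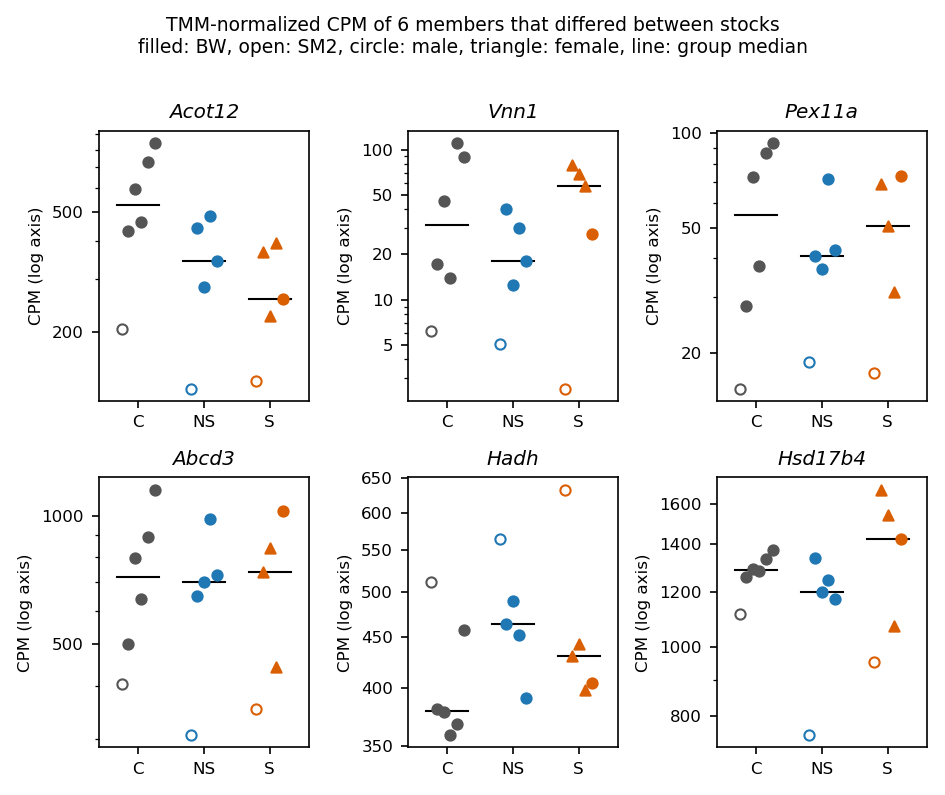
Level of 6 members in each liver, in TMM-normalized CPM on a log axis, by group; each point is 1 animal, open points are SM2 (n = 3), filled points BW (n = 13), triangles females, and lines group medians. Open points lie below all BW animals for Acot12, Vnn1, Pex11a and Abcd3 and above them for Hadh, while for Hsd17b4 the highest SM2 animal, at 1114 CPM, lies within the BW range.

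Covariation was read across the 16 livers on log2 CPM with the group means removed. The median Pearson r over all pairs of members was 0.216 (0.316 in the 13 BW animals), with 67.1% of pairs above 0, and the median over pairs of all tested genes was -5e-04. The members closest to the members' own median were Slc25a20 (r = 0.918, rho = 0.944, n = 16), Acadl (0.892, 0.926), Hadha (0.866, 0.8294), Hadhb (0.842, 0.812) and Acot8, a peroxisomal thioesterase (0.811, 0.879). Without the 2 animals farthest from the median these r ranged from 0.770 to 0.863. Members most like Ehhadh were Acot12 (r = 0.925), Pex11a (0.891) and Vnn1 (0.834), with r of 0.796, 0.762 and 0.820 in BW animals alone. All of these values share the same libraries and scaling and stand as a description.

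**Figure D5:**
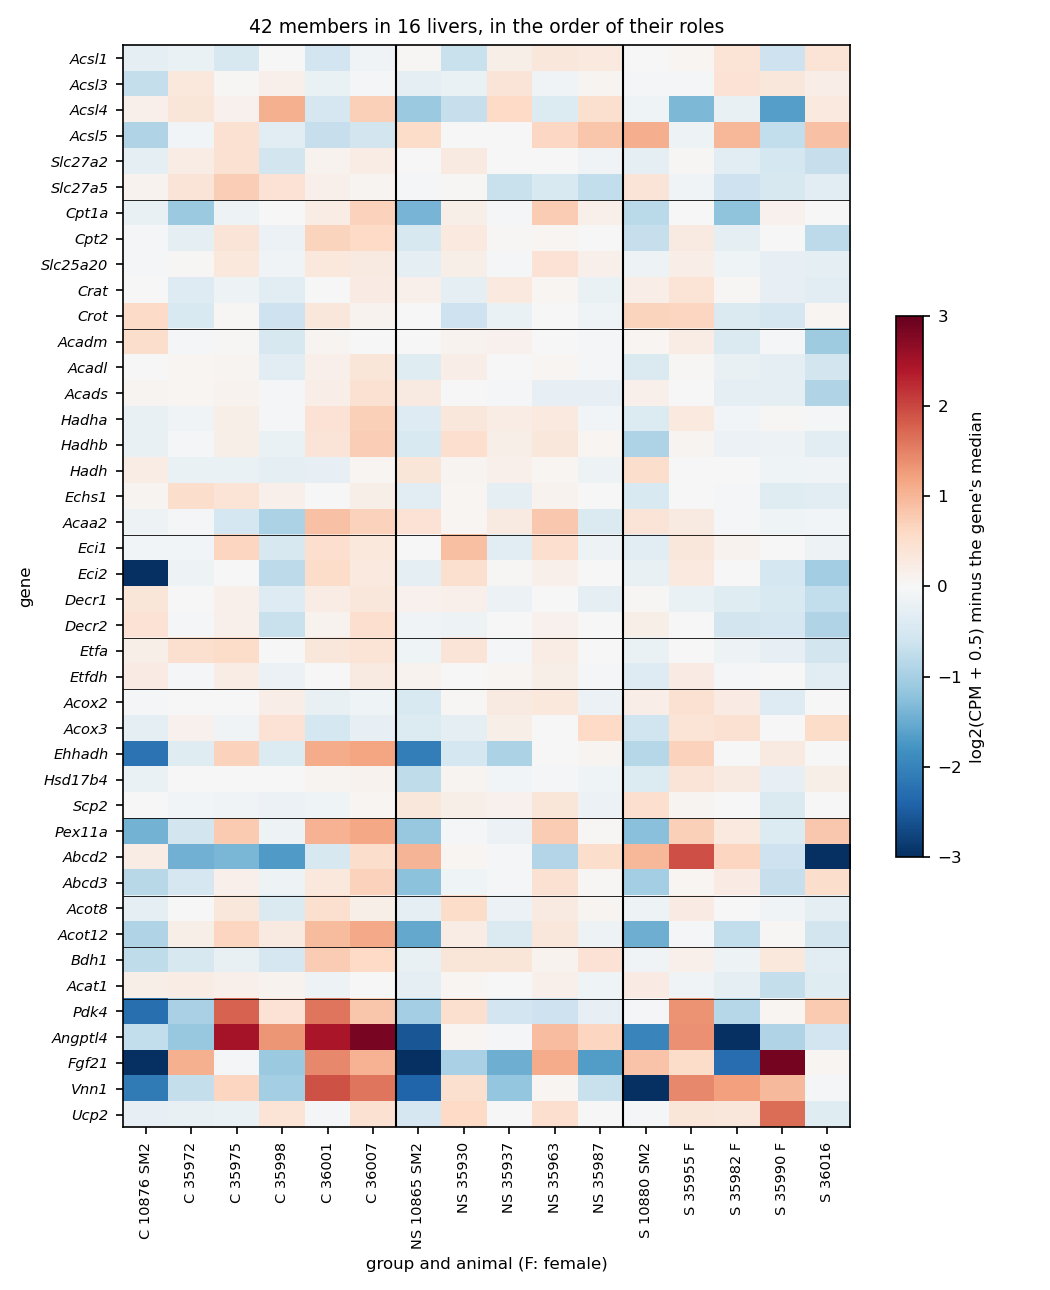
Log2(CPM + 0.5) of the 42 members (rows, in the order of their roles) in the 16 livers (columns, by group), each gene as its difference from its own median, with red higher and blue lower and the colours limited to 3 either way. The SM2 animals 10876, 10865 and 10880 are blue across Ehhadh, Pex11a, Abcd3, Acot12 and Vnn1, and the strongest colours lie in the targets outside oxidation.

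Coordination between groups was read as Pc, the measure used in the study, in which a gene's correlations with every other gene in 1 group are correlated with those in the other. On the deposited counts the members' median Pc was 0.323 between S and C (jackknife SE 0.0695), 0.148 between NS and C (0.0745) and 0.226 between S and NS (0.145), where the medians of all genes were 0.201, 0.102 and 0.174. On TMM-normalized CPM the members' medians were 0.168, 0.224 and 0.221 and those of all genes 0.102, 0.153 and 0.181, so the order of the first 2 comparisons turned. The study reported its average Pc over all genes as lowest between S and C and highest between S and NS. The medians of all genes had that order on TMM-normalized CPM. On the deposited counts they were highest between S and C, unlike in the study. The study's values are averages and those here medians, and its set of transcripts between S and NS was smaller than the set of genes used here. On the deposited counts, below a Pc of -0.2 lay 0 members between S and C, Acox2 between NS and C, and Acsl4 between S and NS (2.6%, 2.92% and 3.53% of all genes). On TMM-normalized CPM neither of these did, and those below were 0 members, 2 (Slc27a5 and Decr2) and 3 (Decr2, Etfdh and Acat1), against 5.17%, 6.69% and 6.88% of all genes. The members' median Pc was above that of all genes in each comparison and under both scales. On the deposited counts the gap was smaller than the members' jackknife SE between NS and C and between S and NS. All genes here were taken without the filter on low counts (13336 to 13431 genes), while every member had a median of at least 15.4 CPM. No comparison with genes of like level was made for Pc.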

How the data were processed

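Liver RNA-seq counts per gene were deposited by the authors as 1 table for 16 animals. Per the study's methods and the submitters' processing notes, reads were aligned to HU_Pman_2.1 with STAR 2.7.2 and uniquely mapped reads were counted with featureCounts on an Ensembl annotation. The strand setting of the counting and the step from gene identifiers to symbols are not given in the sources used here, so overlapping genes and close paralogs (the Acot, Acsl and Acaa families) may share reads and are uncertain. Of the 42 members 40 matched a symbol in RefSeq's gene table.

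Counts were analysed in R 4.3.3 with edgeR 4.0.16: TMM scaling, a minimum of 0.5 CPM in 1 animal or more, and quasi-likelihood tests in 1 fit of the 3 groups, with Benjamini-Hochberg adjustment over 12639 genes. Thresholds (adjusted p of 0.1, 2-fold) and Pc followed the study. HFD against C used the mean of the NS and S coefficients. Steps were tested on simulated data. Values in every animal are given for members past the adjusted p in any comparison and for Cpt1a, Ehhadh, Pdk4, Angptl4 and Fgf21; other genes shown in full were chosen after their values were seen. Alternatives were DESeq2 1.42.0, RLE factors, other filters, sex or stock as a covariate, male or BW animals alone, only the groups compared, an adjusted p of 0.05, and each animal left out; total-count scaling and the stock comparison were added after seeing the data. The members and lists were chosen with earlier results of these data known. Library totals limit precision: the lowest count of a member in any animal was 3. Labels name separate animals, so the spread is between animals.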

Additional observations from a re-analysis of the deposited data

Results flagged for a closer look

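Each member was checked in NS and in S (5 animals each) and in C (6 animals) for a highest or lowest animal that lay far from the rest of its group (Dixon's criterion at 95%). Of 126 such checks 7 were met, where chance gives about 1 in 20. In NS these were animal 35930 with Slc27a2 at 2485 CPM, animal 10865 of the SM2 stock with Hsd17b4, the peroxisomal bifunctional enzyme for branched chains, at 750.9 CPM, and animal 35963 with Fgf21 at 34.2 CPM. In S they were the SM2 animal 10880 with Hadh at 632.5 CPM, animal 35955 with Angptl4 at 94.4 CPM, and animal 35990 with Fgf21 at 115.1 CPM and Ucp2 at 81.7 CPM. Animal 35990 also had the highest sums of macrophage and lymphocyte markers, whose part in these values was not tested.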

How the results depend on the processing

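In S against C, the number of members past the adjusted p was 2 (10.8% of all genes). It was 8 with DESeq2 (14.3% of all genes), 7 with stock as a covariate (15.9%), 7 in BW animals alone (12.6%) and 4 in males alone (7.93%). It was 4 with sex as a covariate and 1 at an adjusted p of 0.05. Under total counts it was 4 (18.1%), all higher and none of them Etfa or Echs1, which stayed below 0. Leaving out 1 animal gave 1 to 6, from 1 without C 35972, 36007 or S 36016 (Etfa) and 1 without C 35975 (Acsl5, higher) to 6 without C 35998. Members that also reached 2-fold (0) were 1 with DESeq2 and with stock as a covariate (Angptl4), 1 with sex as a covariate, in males alone and under total counts (Acsl5), and 0 to 1 on leaving out 1 animal. In NS against C, DESeq2 gave 1 (0.902% of all genes), where the main fit gave 0 (0.0791%). For HFD against C (0, against 2.67% of all genes), the count was 6 with DESeq2 (8.08%), 5 with stock as a covariate (6.77%) and 2 in BW animals (1.58%). It was 1 in males (2.23%), 1 with RLE factors (3.05%) and 1 under total counts (6.01%). It was 3 with sex as a covariate, 3 with at least 1 CPM in 5 animals, and 0 to 3 on leaving out 1 animal. Where no percentage stands beside a count, the share of all genes is not given here. The stock comparison gave 6 to 15 on leaving out 1 animal. In S against NS no alternative gave a member past the adjusted p. The members' median minus that of all genes in S against C stayed between -0.40 and -0.18 over all alternatives. On TMM-normalized CPM the members' median Pc moved to 0.168 between S and C and to 0.224 between NS and C; on leaving out 1 animal it ran from 0.240 to 0.315 and from 0.0985 to 0.181. The causes of these shifts were not tested. No paired analysis was possible because the labels give animal numbers and no replicate number shared between groups. With 5 or 6 animals a group, even differences of more than 2-fold in the variable targets did not pass in the main edgeR fit. Angptl4 was at -2.14 (SE 0.83) in S against C and Fgf21 at 1.83 (SE 0.95) in S against NS. Vnn1 was at -1.15 (SE 0.75) in NS against C. Differences of that size or smaller in these targets could therefore be missed.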
